A study of Bos taurus with 16 samples.

Results

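TFPI, PROS1, F3, THBD, F13A1, PLAU, PLAUR and PLAT encode inhibitors and starters of blood coagulation, a fibrin cross-linking enzyme and proteins of clot dissolution. Their probes were those whose gene name, or the symbol in brackets in the description of the array's design, was 1 of these 8 symbols. All 8 genes were present among the 20602 gene names of the design, with 10 of the 21475 probes of the array, since TFPI was the symbol of 3 probes under different gene identifiers. RNA was compared between CD14+ cells of the endometrium and CD14+ cells of the blood of the same 4 pregnant cows, animals 1 to 4, at days 164, 239, 242 and 248 of pregnancy. CD14 is a lipopolysaccharide co-receptor that marks monocytes and macrophages. The endometrial cells came from enzymatically dispersed tissue between the placentomes, the blood cells from peripheral blood mononuclear cells, and both were sorted by flow cytometry. All cows were pregnant, and there was no group without pregnancy. RNA was amplified, and both tissues of an animal were hybridized in different dyes to the same 2 arrays. Levels are given below as the authors' normalized log2 intensities, each the mean of the 2 arrays, and a log2 ratio is the endometrial level minus the blood level of the same animal.

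Coagulation starts when tissue factor, encoded by F3, meets its circulating partner factor VII, and it ends in thrombin, fibrin and the cross-linking of fibrin by factor XIII. Tissue factor pathway inhibitor blocks the first step, protein S assists that inhibitor and activated protein C, and thrombomodulin on a cell surface turns thrombin toward the activation of protein C. Plasmin, made from plasminogen by tissue-type or urokinase-type plasminogen activator, degrades fibrin, and monocytes and macrophages are known for tissue factor, urokinase and the urokinase receptor on their surface.

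The probes called TFPI differed in sequence and in behavior, so their 60 bases are shown, 5′ to 3′ as the files give them, in lower case with nothing marked. A current reference table of the bovine genome (RefSeq, ARS-UCD2.0) held LOC508763 as TFPI but did not list LOC515917 or LOC618694, which bore the name only in the description of the design.
TFPI probe LOC508763: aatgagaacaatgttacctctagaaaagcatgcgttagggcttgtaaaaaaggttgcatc
TFPI probe LOC515917: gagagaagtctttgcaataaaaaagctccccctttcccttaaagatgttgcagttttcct
TFPI probe LOC618694: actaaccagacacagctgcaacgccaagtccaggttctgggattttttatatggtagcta
At the best ungapped offset on the same strand, any 2 of them shared 21 to 27 of 60 bases. The TFPI gene lies on chromosome 2 at chr2:8776963-8874440 of ARS-UCD2.0. The genes of the other members lie at chr1:38203318-38267163 (PROS1), chr3:48954585-48965468 (F3), chr13:41851481-41855114 (THBD), chr18:51865096-51878376 (PLAUR), chr23:48770276-48913850 (F13A1), chr27:37053712-37077724 (PLAT) and chr28:29793733-29799834 (PLAU). The files give no genome position for any of the 10 probes, so whether a probe lies in a coding exon or a UTR was not determined here, and no other probe held the same 60 bases as a member.

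CD14, the protein on which the cells were sorted, differed in level more between animals than between tissues. None of its 8 blood and 8 endometrial channels was dim, and its level was 16.12 in the blood of animal 1 and 5.76, 8.85 and 6.94 in the blood of animals 2 to 4, and 14.04, 6.07, 9.5 and 7.38 in the endometrium of animals 1 to 4. Its log2 ratio was -0.17 (limma adjusted p = 0.919), and that of CD68, a lysosomal protein of macrophages, was 1.61 (limma adjusted p = 0.276). The summed level of 8 monocyte and macrophage markers on the linear scale was 211081 in the blood of animal 1 and 4554 to 5337 in the blood of the other animals, and it lay between 27448 and 316799 in the endometrium. The 12 lymphocyte markers showed the opposite order in blood, with a sum of 19298 in animal 1 and 127090 to 169865 in animals 2 to 4. In endometrium the lymphocyte sum was likewise lowest in animal 1, at 20303, and it was 180119, 69132 and 120207 in animals 2 to 4. For 5 granulocyte markers the blood sum was 238274 in animal 1 and 2432 to 5738 in the others. S100A12, at 17.69, and CSF3R, at 14.69, carried most of the sum in animal 1, and LTF was at 8.08 beside 3.04 to 6.09. MPO, at 6.94 beside 6.45 to 7.51, and PGLYRP1, at 8.72 beside 8.08 to 8.59, were near the other animals. Across all tested probes, blood of animals 2 to 4 correlated with r of 0.923 to 0.951 and blood of animal 1 with them at 0.788 to 0.822, a description over probes that share their libraries. The blood library of animal 1 thus stood apart, and although all blood samples were labelled as CD14+ cells, those of animals 2 to 4 had low monocyte and high lymphocyte marker sums beside it. Values without animal 1 are given beside the results. In such bulk samples fewer cells of a type and less RNA per cell cannot be told apart.

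Of the 10 probes, 3 were called higher in endometrium and none was called higher in blood. They were TFPI under LOC508763, PROS1 and PLAT, at 22.1-fold, 23.3-fold and 13.4-fold. Without animal 1, only the TFPI probe was called of the 10. A probe was called where its fold change was over 2 and its adjusted p (limma on the 4 log2 ratios, Benjamini-Hochberg over 16654 tested probes) was no more than 0.05. Of all tested probes 1.35% were called, 1.22% higher in endometrium and 0.12% higher in blood. Without adjustment, p was no more than 0.05 at that fold change for 4 of the 10 probes, PLAUR being the fourth, beside 16% of all tested probes. The 3 called probes were higher in endometrium in 4 of 4 animals, as were 9.82% of tested probes. Levels of the tissues did not overlap for 2 of the 10, both higher in endometrium, and for none with blood higher, beside 2.7% and 3.37% of tested probes. The log2 ratio was above 0 for 7 probes and its median over the 10 was 1.34, whereas 43.3% of all tested probes were above 0 and their median was -0.14. All 10 probes passed the filter on dim signals, and the 2 arrays of an animal differed in the log2 ratio by a median of 0.16 and at most 0.80 over these probes. A two-sided exact permutation test on 4 pairs cannot give a p under 2 in 16, so the adjusted p rests on the spread that limma pooled over probes.

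**Figure D1:**
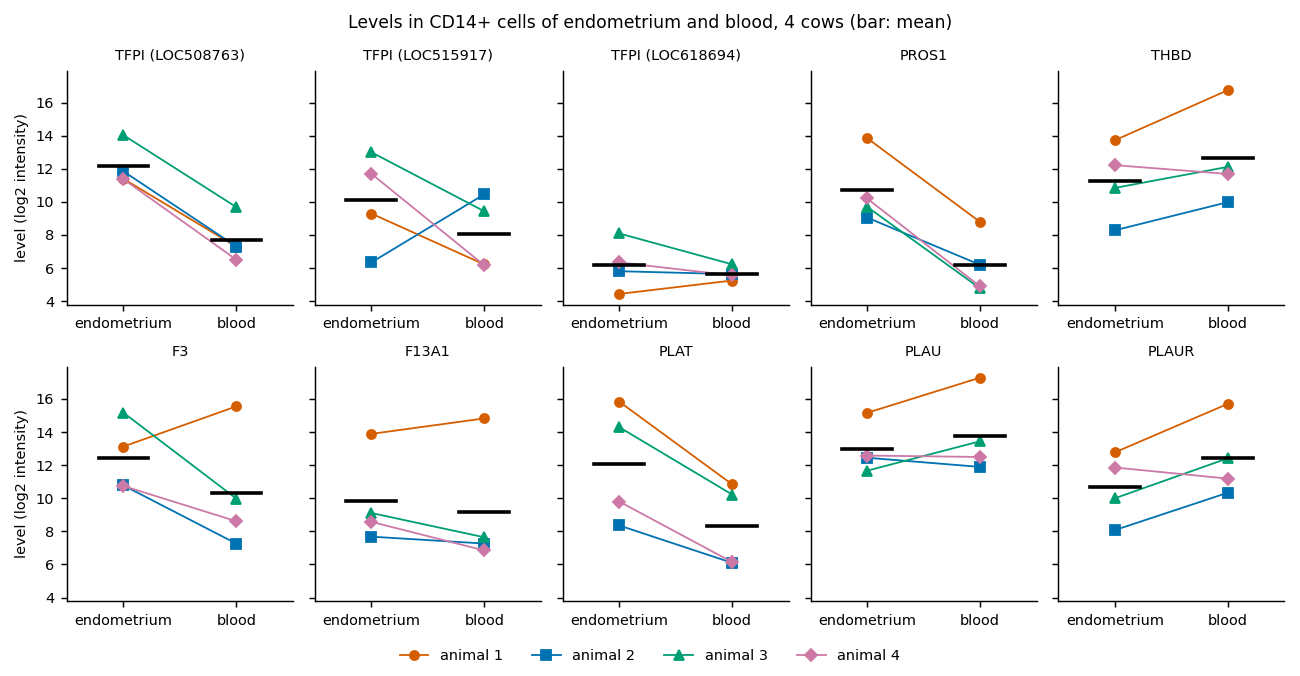
Levels (log2 intensity, mean of 2 arrays) of the 10 probes in CD14+ cells of endometrium and blood, with a line for each of the 4 animals and a bar at the mean of each tissue. The TFPI probe LOC508763 and PROS1 are the 2 whose endometrial levels all lie above all blood levels, and animal 1 is the highest blood sample for 7 of the 10 probes.

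Among the inhibitors, TFPI, the Kunitz-type inhibitor of tissue factor with factor VII, was higher in endometrium in 4 of 4 animals by the probe LOC508763. The endometrial level was 11.39, 11.84, 14.03 and 11.37 in animals 1 to 4. Its blood level was 7.29, 7.30, 9.68 and 6.51 in the same animals. All endometrial samples were above all blood samples, so the tissues did not overlap. Animal 3 had the highest level and animal 4 the lowest in both tissues, and the whole order of the 4 animals was the same in both, as it was for 8.1% of tested probes. The log2 ratios per animal were 4.10, 4.55, 4.35 and 4.86, a narrower spread (SD 0.32, n = 4) than that of any other of the 10 probes. Their mean was 4.46 (SE 0.44, limma adjusted p = 0.00827), and 40 tested probes had a lower p. It kept its call without animal 1 (4.59, adjusted p = 0.0478), 2 or 3, but without animal 4 the adjusted p was 0.0574 with a log2 ratio of 4.33.

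The other probes that bear the name TFPI gave different pictures. By LOC515917 the endometrial level was 9.30, 6.34, 13.003 and 11.70 in animals 1 to 4. Its blood level was 6.22, 10.46, 9.43 and 6.16. Animal 2 ran against the other 3, with a log2 ratio of -4.12 where theirs were 3.08, 3.57 and 5.54, and the mean of 2.02 (SE 1.45) was not called (limma adjusted p = 0.528). By LOC618694 the levels were 4.44, 5.81, 8.09 and 6.34 in endometrium and 5.25, 5.64, 6.23 and 5.55 in blood, so that the tissues overlapped. Its mean log2 ratio was 0.51 (SE 0.57, limma adjusted p = 0.707). The mean over the 3 probes, 2.33, was below the 4.46 of the probe that RefSeq lists as TFPI.

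PROS1, which encodes the anticoagulant cofactor protein S, was higher in endometrium in 4 of 4 animals. The level in endometrium was 13.85, 9.05, 9.71 and 10.21 in animals 1 to 4. Its blood level was 8.79, 6.20, 4.77 and 4.89. The lowest endometrial sample, animal 2, was above the highest blood sample, animal 1, and animal 1 was the highest in both tissues. The log2 ratios per animal were 5.07, 2.85, 4.93 and 5.32, with a mean of 4.54 (SE 0.57, limma adjusted p = 0.0154). The blood signal was well above background in 4 of 8 channels, those of animals 1 and 2. In animal 3 neither of the 2 spots was, and in animal 4 only 1 was, so the ratios of these animals rest on blood values near background. With the background of the scanner medians corrected by normexp (offset 50) instead, the log2 ratio was 2.54 (adjusted p = 0.262). The call was also lost without animal 1 (4.37, adjusted p = 0.0855), without animal 3 (4.41, adjusted p = 0.0661) and without animal 4 (4.28, adjusted p = 0.0745).

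Thrombomodulin, encoded by THBD, was not called. Its endometrial level was 13.73, 8.28, 10.85 and 12.22 in animals 1 to 4, and its blood level was 16.75, 9.99, 12.12 and 11.69. Blood was higher in animals 1 to 3 and endometrium in animal 4, and the tissues overlapped. The log2 ratios were -3.02, -1.70, -1.27 and 0.53, with a mean of -1.37 (SE 0.65, limma adjusted p = 0.350), and without animal 1 the mean was -0.81 (adjusted p = 0.630).

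The starter of coagulation, F3, was split between animals. In endometrium F3 was at 13.13, 10.78, 15.17 and 10.74 in animals 1 to 4, and its blood level was 15.56, 7.26, 9.97 and 8.61. Animal 1 had the highest blood level of F3 and was the only animal with more in blood than in endometrium, by a log2 ratio of -2.43, whereas the other log2 ratios were 3.52, 5.19 and 2.13. The mean of 2.10 (SE 1.15) was not called (limma adjusted p = 0.411), and neither was that without animal 1, 3.62 (adjusted p = 0.150).

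F13A1, which encodes the catalytic A subunit of the fibrin cross-linking factor XIII, was set apart by animal 1 in both tissues. Its blood level was 14.83 in animal 1 and 7.26, 7.64 and 6.85 in animals 2 to 4. Its endometrial level was 13.89 in animal 1 and 7.68, 9.11 and 8.58 in the others. The log2 ratios of -0.93, 0.42, 1.47 and 1.73 were smaller than these differences between animals, and their mean of 0.67 (SE 0.59, limma adjusted p = 0.610) was not called. Without animal 1 it was 1.20 (adjusted p = 0.454).

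**Figure D2:**
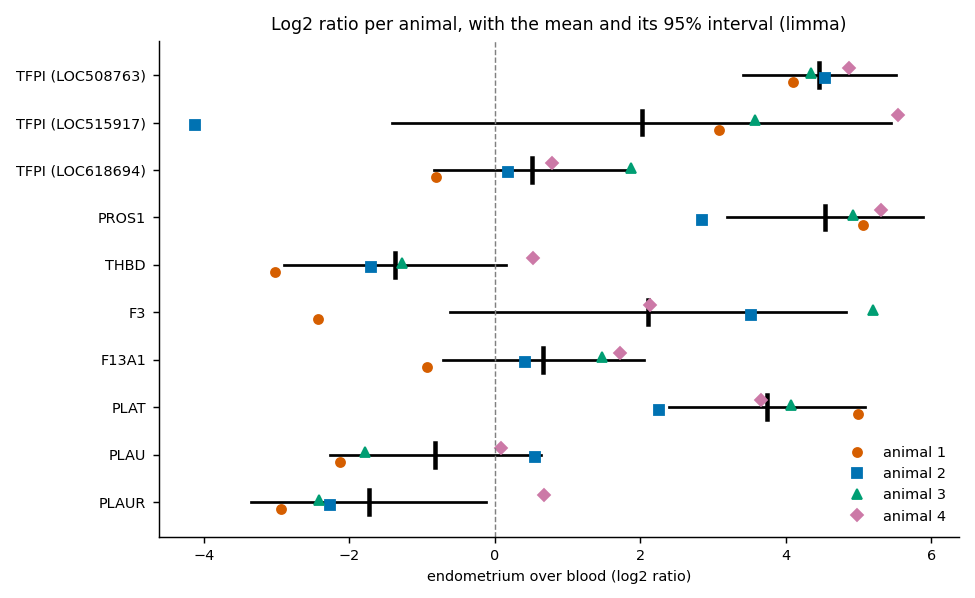
Log2 ratio of endometrium over blood for each of the 10 probes, with a symbol for each animal, a thick tick at the mean of 4 animals and a line for its 95% interval from limma. The 4 animals lie to the right of 0 for the TFPI probe LOC508763, PROS1 and PLAT, and on both sides of 0 for the other 7 probes.

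Of the fibrinolysis genes, PLAT, which encodes tissue-type plasminogen activator, was higher in endometrium in 4 of 4 animals. Its endometrial level was 15.84, 8.36, 14.30 and 9.80 in animals 1 to 4. Its blood level was 10.84, 6.10, 10.22 and 6.15. Animals 1 and 3 were high and animals 2 and 4 low in both tissues, in the same order, so the tissues overlapped although each animal had more in endometrium. The log2 ratios were 4.999, 2.26, 4.07 and 3.66, with a mean of 3.75 (SE 0.57, limma adjusted p = 0.0316). The call held without animal 2 but not without animal 1 (3.33, adjusted p = 0.123), animal 3 (3.64, adjusted p = 0.114) or animal 4 (3.78, adjusted p = 0.0999), nor with normexp on the scanner medians (2.87, adjusted p = 0.262).

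PLAU, which encodes urokinase, had no common direction. In endometrium its level was 15.16, 12.45, 11.67 and 12.58 in animals 1 to 4, and its blood level was 17.29, 11.90, 13.45 and 12.50. Animals 1 and 3 had more in blood, by log2 ratios of -2.13 and -1.78, while the log2 ratios of animals 2 and 4 were 0.55 and 0.08. The 2 arrays differed by 0.80 in animal 1, 0.050 in animal 2 and 0.080 in animal 4. The mean was -0.82 (SE 0.61, limma adjusted p = 0.548) and without animal 1 it was -0.38 (adjusted p = 0.839).

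Its receptor, encoded by PLAUR, was higher in the blood of animals 1 to 3. The endometrial level of PLAUR was 12.78, 8.08, 10.00 and 11.86 in animals 1 to 4, and its blood level was 15.71, 10.34, 12.42 and 11.19. Animal 4 again had the opposite sign, and the tissues overlapped. The log2 ratios were -2.93, -2.26, -2.42 and 0.67, with a mean of -1.73 (SE 0.69) that did not pass the adjustment (limma adjusted p = 0.291), and without animal 1 the mean was -1.34 (adjusted p = 0.512).

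Across the 8 means of tissue and animal, PLAUR and THBD had the closest pattern of any pair of the 10 probes, with a Pearson r of 0.98. PLAU was at 0.89 with THBD and 0.86 with PLAUR, and F13A1 at 0.89 with PLAU. The TFPI probe LOC508763 was at -0.41 with PLAUR and -0.32 with THBD, and at 0.67 with PLAT and 0.61 with PROS1. These values describe 8 means in which both tissues of an animal come from the same arrays, and animal 1 was high for PLAUR, THBD, PLAU and F13A1 alike. Among tested probes with a gene symbol, the nearest to TFPI were MAL2, a membrane trafficking protein of epithelia, at 0.99 and PRP8, a prolactin-related protein of the placenta, at 0.98. Such r values include the difference between the tissues, and the log2 ratios of MAL2 and PRP8 were 4.68 and 4.94. A common cell source was not tested. The nearest to PROS1 were ASPA and BRB, both at 0.98, and those to PLAT were RAI2 and TUBB6, both at 0.99. For THBD they were PLAUR and PFKFB4, for PLAUR they were THBD and CSF2RB, a shared receptor subunit of myeloid growth factors, all at 0.98. NAIP and SLC2A6 were nearest to PLAU and OXNAD1 and MGST2 to F3, all at 0.98, and PARP3 and SLC8A1 were nearest to F13A1, both at 0.99.

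Animal 1 carried the highest blood level for 7 of the 10 probes, all but those named TFPI, where 31% of all tested probes were highest in that sample. Its excess over the median of the other 3 blood samples was 7.56 for F13A1, 6.95 for F3, 5.06 for THBD, 4.79 for PLAU, 4.70 for PLAT, 4.52 for PLAUR and 3.90 for PROS1 on the log2 scale. An excess over 5 was found for 2.58% of tested probes. The TFPI probe LOC508763 had a difference of -0.01, so its blood level in animal 1 was that of the middle of the others. In endometrium animal 1 was the highest for 6 of the 10 probes, beside 19% of tested probes, and there the differences were 6.04 for PLAT, 5.32 for F13A1, 4.15 for PROS1, 2.88 for THBD, 2.77 for PLAUR, 2.71 for PLAU and 2.35 for F3. F3 was the exception among these genes, since its highest endometrial level was in animal 3. The higher monocyte and granulocyte marker sums in the blood of animal 1, given above, moved with this pattern, the granulocyte sum mainly through S100A12 and CSF3R. In endometrium the stromal sum was 337199 in animal 1 and 411 to 8122 in the others, and the monocyte and macrophage sum was 316799 in animal 1 and 27448 to 93361 in the others. The part of these cells in the pattern was not tested. Animal 1 was also the only cow at day 164 of pregnancy, the others being at days 239, 242 and 248. Stage of pregnancy and other traits of animal 1 cannot be told apart here.

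**Figure D3:**
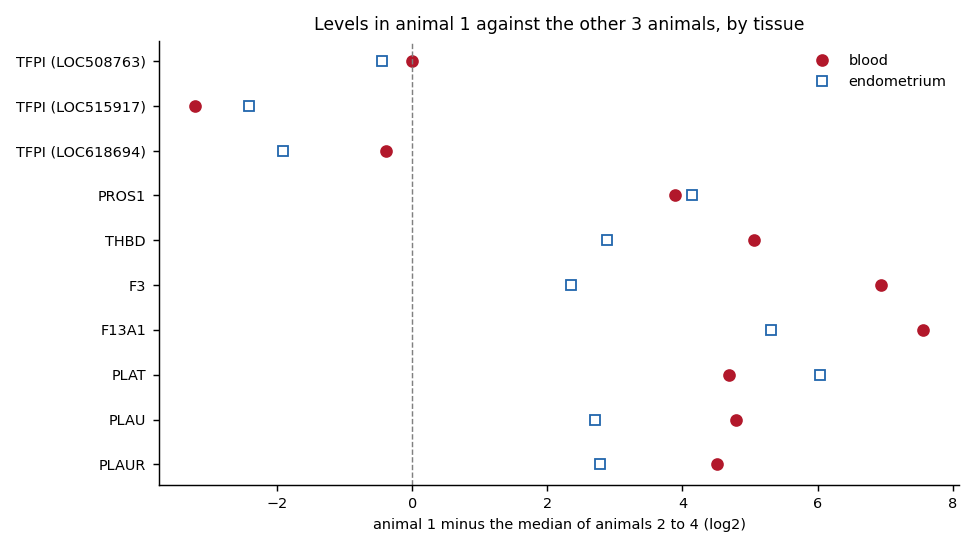
Level in animal 1 minus the median of animals 2 to 4 (log2) for each probe, filled circles for blood and open squares for endometrium. The 7 probes of genes other than TFPI lie to the right of 0 in both tissues, up to 7.56 for F13A1 in blood, and the 3 TFPI probes lie at or left of 0.

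Other genes of the system showed no calls. Of 32 tested genes of coagulation, its inhibitors, fibrinolysis and the thrombin receptors, none passed, where only 1.35% of all tested probes were called. For 19 the log2 ratio was above 0, beside 43.3% of all tested probes. The median was 0.70, beside the median of -0.14 of all tested probes. The coagulation factor list held 11 tested genes (median 0.93, and 0.41 without animal 3). Among them were LMAN1, GGCX and VKORC1, which process or carry factors and are not factors themselves. The log2 ratio was 4.37 for FGB, the fibrinogen beta chain (limma adjusted p = 0.094). For VWF, the von Willebrand factor of endothelium and platelets, it was 2.64 (limma adjusted p = 0.211). It was -0.51 for F12 and -0.38 for F8. FGB levels were 7.74, 7.49, 11.87 and 10.97 in the endometrium of animals 1 to 4 and 6.76, 3.06, 5.52 and 5.26 in their blood, all 4 animals having more in endometrium, and FGB was called once animal 1 was left out (5.50, adjusted p = 0.0452). The blood signal of FGB was well above background in 5 of 8 channels, and in animal 2 its level was below the lowest that counted as such, so these ratios rest in part on blood values at background. Among 5 inhibitors (median -0.03), the log2 ratio was 0.94 for GAS6, a relative of protein S (limma adjusted p = 0.667). It was 0.88 for A2M, a broad protease inhibitor (limma adjusted p = 0.751), and -0.87 for SERPINC1, antithrombin (limma adjusted p = 0.461). For PROCR, the endothelial protein C receptor, it was -0.52 (limma adjusted p = 0.888). GAS6, A2M and PROCR were each higher in endometrium in 2 of 4 animals, and SERPINC1 was higher in blood in all animals.

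The 13 tested genes of fibrinolysis outside the 8 had a median log2 ratio of 0.70, and of 0.043 without animal 3. CPB2, a carboxypeptidase that protects fibrin, was at 2.77, on a blood signal well above background in 4 of 8 channels, and CLEC3B, the plasminogen-binding tetranectin, at 2.47. SERPINB2, an inhibitor of urokinase, was at -2.89 (limma adjusted p = 0.124). For SERPINB2 the blood level was 16.10, 9.60, 8.74 and 7.58 in animals 1 to 4 and the endometrial level 11.73, 5.85, 6.33 and 6.57, so that blood was higher in 4 of 4 animals. This direction in all animals held for 15.2% of tested probes. Of the 3 tested receptors for thrombin and related proteases (median -0.63), F2RL2 was at 1.15, F2RL3 at -0.63 and F2R, the main thrombin receptor, at -1.46.

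**Figure D4:**
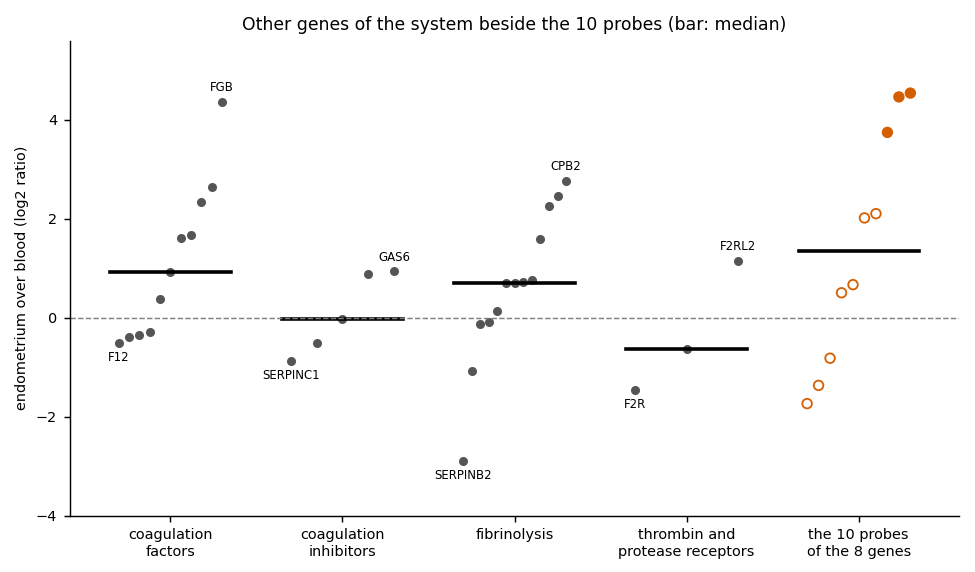
Log2 ratio of endometrium over blood for 32 other tested genes of the system by list, with a bar at the median, and for the 10 probes of the 8 genes at the right. Filled orange circles are the 3 called probes, open ones the 7 not called, and none of the grey genes was called.

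Markers of some other cell types moved with the same contrast, those of trophoblast, epithelium and in part stroma. Of 10 tested trophoblast markers, 9 were called higher in endometrium. For 8 of them the log2 ratio was 4.63 to 5.74, with PRP4 well above background in only 1 of 8 blood channels. PAG17 was not well above background in any blood channel and was at least 54.98-fold higher in endometrium, set against the lowest blood signal that was. Its call came from the limma fit on the measured values, with blood at background (adjusted p = 0.00733). The remaining one, PAG1, now names an adaptor protein and not a placental gene. Summed over those 9, the linear level was 49654 to 167722 in endometrium and 1408 to 3625 in blood, and the placental lactogen gene CSH2 (CSH1 in the array's design) was at 5.45. Of 11 epithelial markers, 7 were called higher in endometrium, among them KRT18 at 3.91, with a list median of 3.91 and sums of 40415 to 383007 in endometrium and 1865 to 9240 in blood.

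Of 9 stromal markers, COL3A1 and DCN were called, although their blood signal was well above background in only 2 and 4 of 8 channels, and the list median was 3.63. Its medians per animal of 6.05, 0.04, 3.73 and 3.66 were lowest in animal 2, as were the log2 ratios of PLAT and PROS1. The 0.04 of animal 2 was the ratio of LUM, at 2.53 in endometrium and 2.49 in blood. These levels were below the lowest that counted as well above background in that animal, so the 0.04 compares background with background. The stromal sum was 411 to 337199 in endometrium and 348 to 4805 in blood. Medians of the monocyte and macrophage, endothelial and platelet lists were lowest in animal 2 as well, at 0.73, -0.89 and -1.07. Those of the trophoblast, epithelial, granulocyte and lymphocyte lists were lowest in another animal. None of 11 endothelial markers was called (median 0.35), and their sums of 4398 to 28069 in endometrium and 3456 to 6784 in blood overlapped. Of the 7 platelet markers, none was called either (median -0.33), with sums of 4703 to 13409 in endometrium and 5719 to 17586 in blood. Nor was any of 5 granulocyte markers (median -0.69) or 12 lymphocyte markers (median -0.16). The 8 monocyte and macrophage markers had a median of 2.61 with 6 of 8 above 0, and MSR1, a scavenger receptor, was the only called one, at 4.61. CSF1R, the receptor of macrophage colony-stimulating factor, was at 3.53 without a call. What part the trophoblast, epithelial, stromal and macrophage RNA had in the ratios of TFPI, PROS1 and PLAT was not tested.

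The 3 calls were read under 14 other processings of the same arrays. TFPI under LOC508763 was called in 11 of them, PROS1 in 7 and PLAT in 6, and in the 10 that can change a log2 ratio each of the 10 probes kept its sign. The other 4 change only the filter or the test. The range of the log2 ratio was 3.36 to 4.59 for TFPI under LOC508763, 2.54 to 5.10 for PROS1 and 2.87 to 4.24 for PLAT. With normexp on the scanner medians 0.0661% of tested probes were called, and TFPI under LOC508763 was among them at 3.36 (SE 0.25, limma adjusted p = 0.0386), with log2 ratios of 2.96, 3.29, 3.91 and 3.28 in animals 1 to 4. When the tissues were treated as independent groups, without the pairing by animal, none of the 3 was called, with adjusted p of 0.140 for TFPI under LOC508763, 0.362 for PROS1 and 0.539 for PLAT. By the methods' analysis of variance they had unadjusted p of 1.04e-04, 0.00409 and 0.00716, and adjusted p of 0.215, 0.327 and 0.400 over all tested probes. A dye term on the 8 arrays, with animal as a random block, left all 3 called.

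**Figure D5:**
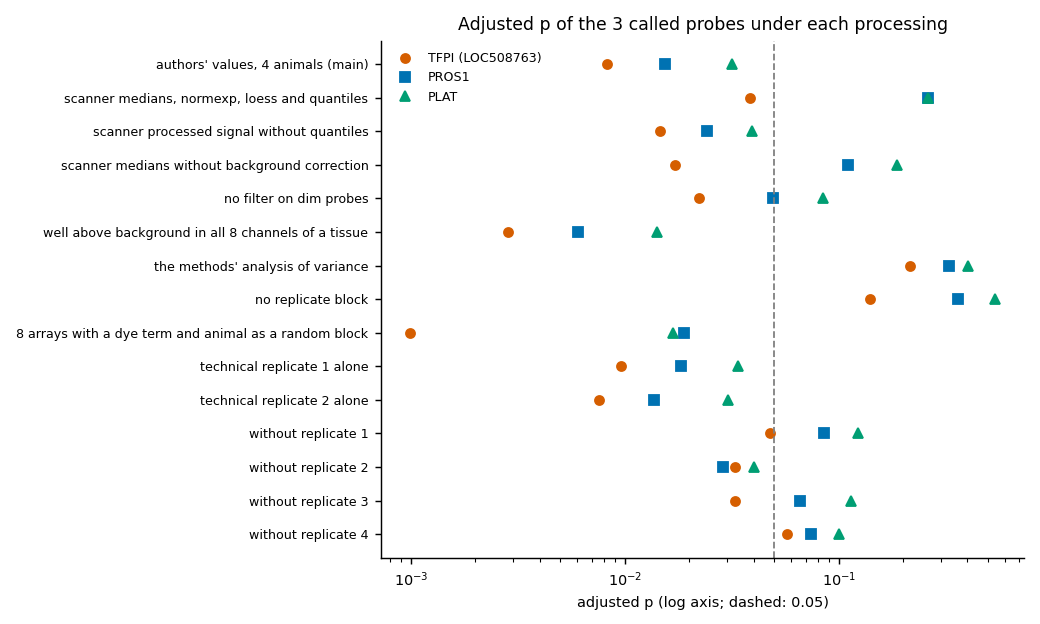
Adjusted p (log axis) of the 3 called probes under the processing used here and 14 alternatives, with a dashed line at 0.05. TFPI under LOC508763 lies to the right of the line under 3 alternatives, PROS1 under 7 and PLAT under 8.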

How the data were processed

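RNA of 16 samples, 2 tissues of 4 cows with 2 technical replicates each, had been hybridized to 8 two-colour Agilent bovine arrays. The authors deposited a table of log2 intensities, normalized by lowess within arrays and quantiles over the 16 channels, and scanner files with median and processed intensity per spot (the labels name Feature Extraction 9.5, the file headers 10.5.1.1). The 2 files of each array were identical. Each table column had the rank order of its dye's processed signal in the file deposited under the animal's other technical replicate. With those ranks mapped on the column's own sorted values, means per probe were equal within 0.001 log2 at 100% of probes. Flags and scanner intensities were read through this match, which was chosen after seeing the values. Dyes were swapped between technical replicates in 3 of 4 animals, the exception being animal 3. On both arrays of animal 3 endometrium was in Cy5 and blood in Cy3. A dye effect and a tissue effect therefore cannot be told apart in the ratios of animal 3.

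Spots of a probe were averaged, then the 2 technical replicates. The log2 ratio per animal was tested against 0 with limma 3.58.1 in R 4.3.3 (lmFit, eBayes) over probes well above background in at least 4 of 8 channels of at least 1 tissue, and called where the fold change was over 2 and the Benjamini-Hochberg adjusted p no more than 0.05. Quantile normalization does not remove background, so ratios of dim probes are less certain. Medians of all spots were 48 to 155.5 in blood channels and 52.5 to 402.75 in endometrial channels, with 65.2% to 82.9% of spots well above background and none saturated, and the number of arrays limits precision. Pairing comes from the labels, which number both tissues of an animal alike; deviations from the tissue means correlated with r of 0.628, 0.372, 0.239 and 0.452 within animals 1 to 4. On simulated data with 200 changed probes among 16654 for this comparison, log2 changes of 2, 3, 4 and 5 were called in 0%, 31.8%, 47.1% and 51.0% of cases.

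The 8 genes and the gene lists were chosen with earlier results of these data known. All member probes are reported; of the lists, genes called and otherwise the 2 with the largest log2 ratio in each direction, and the 2 probes most like each member's brightest probe, are named. The brightest tested probe stood for a list gene. Alternatives changed the intensities, background correction, filter, test, pairing, dye term, technical replicate, animals and threshold. Python 3.11.15, pandas 2.3.3, scipy 1.17.1 and matplotlib 3.10.9 were used. Flow cytometry and qPCR were not analysed here, and a result that the naming rule would include is not reported here.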

Additional observations from a re-analysis of the deposited data

Results flagged for a closer look

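A value was marked where 1 of the 4 animals lay so far from the rest that its gap to the nearest other exceeded Dixon's 95% critical share of the whole range, which chance does for about 1 in 20 groups. Of 30 sets of 4 values over the 10 probes, 2 were marked. The blood level of F13A1 was 14.83 in animal 1, against 6.85 to 7.64 in the other animals. The same limit was passed by the blood levels of 8.95% of tested probes. The log2 ratio of PROS1 was 2.85 in animal 2, against 4.93 to 5.32 in the others, where 5.26% of tested probes passed the limit.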

How the results depend on the processing

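The log2 ratios of the 10 probes kept their sign under the 10 alternatives that can change them. Normexp on the scanner medians was run with an offset of 50, a constant that draws log2 ratios of dim probes toward 0. Its part and that of the background correction were not tested apart. With this setting, the number of called probes among all tested went from 224 to 11 and that among the 10 from 3 to 1, and the median log2 ratio of all probes moved from -0.14 to -0.02. Without background correction these counts were 50 and 1, without a filter on dim probes 123 and 2, with the methods' analysis of variance 0 and 0 (1229 at an unadjusted p, against 2670 with limma), and without the replicate block 38 and 0. Leaving out each replicate in turn gave 0 to 180 called probes and 0 to 3 of the 10, the lowest without animal 4, and 0 to 1 called pathway genes. Over these, the median log2 ratio of the coagulation inhibitors list, -0.03 with all animals, ranged from -0.42 to 0.9999, and it was 0.20 with normexp. That of the granulocyte list ranged from -1.16 to 0.044 (above 0 without animal 1) and that of the lymphocyte list from -0.64 to 0.56 (above 0 without animal 3), and that of the platelet list was 0.043 with normexp. The trophoblast, epithelial, stromal and coagulation factor medians were 3.51, 2.65, 1.90 and 0.30 with normexp, against 5.22, 3.91, 3.63 and 0.93. Leaving out an animal moved the medians of the coagulation factors (0.41 to 1.59), fibrinolysis (0.043 to 0.89) and endothelial lists (0.092 to 1.06). The cause of these changes was not tested. With 4 animals, changes of small size could not be called, and in the simulated data large changes were often missed as well. A probe or gene without a call may therefore still differ between the tissues, even by a large log2 ratio. Signals near background, as for PROS1 in blood, also limit the ratios.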
